A study of Mus musculus with 3 samples.

Results

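The 10 genes described here encode transcription factors and cofactors of the motile cilium: Foxj1, Noto, Rfx1, Rfx2, Rfx3, Rfx5, Rfx7, Gmnc, Mcidas and Trp73. They were picked by their symbols from the 31054 features counted in each library, and their levels were followed in cells of the left-right organizer (LRO) and in the other lineages of the same embryos. The data are single-cell RNA counts of 3 mouse embryos labelled wt, of a mixed C57BL/6 x 129 SvEv background, collected at embryonic day 8. The collection protocol gives 0 to 1 somite, while a label field allows up to 2. The study gives the embryos as male. Each embryo was freed of its extraembryonic tissue, dissociated whole and made into 1 library of barcoded 3' ends, so the embryo is the replicate. No treatment was given, and the labels name 1 genotype for these embryos. Transcripts were counted by unique molecular identifiers (UMIs), with each captured molecule counted once, and levels are given as CPM, the UMIs of a gene among the cells summed, scaled to the same total UMIs in every sum.

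The LRO, called the node in the mouse, is a transient pit at the tip of the notochord whose cells each carry a single cilium. Cilia in the pit are motile and move fluid leftward by rotating, while those of the crown cells at its edge do not move and serve to read the flow, which sets the left side of the body. FOXJ1 is the forkhead factor that turns on the motile cilium programme, and NOTO is the notochord homeodomain factor upstream of Foxj1 in the mouse node. RFX factors bind the X-box of cilium genes. RFX2 and RFX3 are the members best known for ciliogenesis, RFX1 and RFX7 are widely expressed relatives, and RFX5 acts with RFXANK and RFXAP on major histocompatibility class II genes. GMNC and MCIDAS are geminin relatives that start multiciliation, in which a cell makes many centrioles and many cilia, and Trp73 encodes p73, which acts in the same programme in airway and ependymal cells.

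The members lie on 10 different chromosomes of GRCm38, the genome version also called mm10. Foxj1 (ENSMUSG00000034227) is on the minus strand of chromosome 11 at 116330704-116335399, and Noto (ENSMUSG00000068302) on the plus strand of chromosome 6 at 85423886-85428877. Rfx2 (ENSMUSG00000024206) is on the minus strand of chromosome 17 at 56775897-56831013, and Rfx3 (ENSMUSG00000040929) on the minus strand of chromosome 19 at 27761721-28011166. Rfx1 (ENSMUSG00000031706) spans 84066834-84096992 on chromosome 8, Rfx5 (ENSMUSG00000005774) 94954075-94961561 on chromosome 3 and Rfx7 (ENSMUSG00000037674) 72532240-72622937 on chromosome 9, all on the plus strand. Gmnc (ENSMUSG00000068428) spans 26913553-26991652 on the minus strand of chromosome 16, Mcidas (ENSMUSG00000074651) 112993845-113000394 on the plus strand of chromosome 13 and Trp73 (ENSMUSG00000029026) 154056253-154140208 on the minus strand of chromosome 4.

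The letters GTTGCC, the core of the X-box bound by RFX factors, were searched on both strands from 250 bases before to 50 bases after each RefSeq transcript start. They occurred in 4111 of all 32851 promoters (12.5%), and in the promoters of Rfx1, Rfx2, Rfx3, Mcidas and Trp73 among the 9 members matched. In Rfx1, Rfx2 and Rfx3 the letters AAC and 1 further base stood directly before them, and this longer run, AACNGTTGCC, occurred in 44 of the 32851 promoters (0.134%). Rfx8, which is not a member, also differed between LRO cells and other cells. None of the 5 promoters matched for the other RFX family and complex genes held the longer run. Whether the run bears on the level in LRO cells was not tested. The 3 windows are shown because 2 of the 3 genes with the run, Rfx2 and Rfx3, are the RFX members that differed. They are written 5′ to 3′ on the strand of the gene, GRCm38.p6, with the run in capitals, and the search for the longer run was chosen after the sequences had been seen.
Rfx1, chr8:84066823-84066852, plus strand: ggtgggtagcAACAGTTGCCccggtgaggg
Rfx2, chr17:56831109-56831138, minus strand: gcagcttggtAACCGTTGCCgggcgcaacg
Rfx3, chr19:28011120-28011149, minus strand: gagttatagcAACCGTTGCCttgtgaatca
The first base of the run lay at position -3 from the start of Rfx1, at -120 for Rfx2 and at 28 for Rfx3. Noto, Rfx5, Rfx7 and Gmnc had no match of GTTGCC in these windows. The fixed motile cilium list was drawn up as targets of FOXJ1 and RFX factors, the general cilium list as targets of RFX factors. GTTGCC was in 14 of 30 promoters (46.7%) of the former and 6 of 8 (75%) of the latter. None of these held the longer run. With lists chosen in this way, these shares are no independent result. A match of letters is a description of the sequence and not a site shown to be bound.

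After quality control 5795, 7956 and 7844 cells remained in embryos 1, 2 and 3, with a median of 27635, 14615 and 16332.5 UMIs, so embryo 1 was the deepest per cell. Cell barcodes shared between any 2 libraries numbered 18 to 22, and none of the shared ones was an LRO cell in both. A cell was taken as an LRO cell when at least 3 of 4 ciliary marker genes (Pifo, Fam183b, Cfap126, 1110017D15Rik) had a UMI, which gave 86, 86 and 110 cells, 282 of 21595 (1.31%). Their median depth was 31852, 19990.5 and 28131.5 UMIs. T, the notochord and primitive streak factor brachyury, had a UMI in 275 of the 282, Foxa2 in 207 and Shh in 201, while Nodal and Dand5, which mark the crown at the edge of the node, had one in 117 and 134. The 3-marker rule also took cells that met the list of another lineage, 57, 55 and 83 in the 3 embryos (195 in all), besides those of the axial mesoderm and definitive endoderm lists. The median depth of these was 43367, 30552 and 34241 UMIs, against 12084, 7798 and 9116 in the remaining LRO cells. The lists met most often were the neuromesodermal one (101 LRO cells), presomitic mesoderm (97), neural plate (85), paraxial mesoderm (65) and mesenchyme (55). Erythroid markers were met in 1 LRO cell, and the part of doublets in these was not tested. Results are therefore also given without those 195 cells.

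The 123 cells that met the axial mesoderm list (T, Foxa2, Shh, Chrd, Nog; 42, 58 and 23 cells) did not hold the markers of a single lineage. Of these, 69 also met the definitive endoderm list, and in them Sox17, an endoderm factor, was at 329 CPM and T at 173 CPM over pooled cells. In the other 54 cells Sox17 was at 2.94 CPM and T at 767 CPM. They are called cells of the axial mesoderm list below, and the members, lists and named genes tested against them are also given without the 69 cells, an alternative added after seeing the data. The 643 cells of the definitive endoderm list also carried RNA of the extraembryonic endoderm list, at 1468 to 1797 CPM summed over its 5 genes. Single genes of that list had a UMI in 3.11% to 96.3% of these cells. The list includes Spink1, which the study uses as a general endoderm marker. Cells of the axial mesoderm list carried it at 598 to 844 CPM.

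The reference to which the reads were aligned held the EGFP sequence, and 2 of the 3 libraries labelled wt held EGFP transcripts. In embryo 1, EGFP had a UMI in 18 of 86 LRO cells (20.9%, exact 95% interval 12.9 to 31.0), and in embryo 3 in 19 of 110 (17.3%, 10.7 to 25.7). In embryo 2 it had one in 0 of 86 LRO cells, which allows a share of up to 3.49% by the floor of 3 counts (exact upper limit 4.20%), and in none of the other cells. Outside the LRO cells, EGFP was found in 2 of 5709 cells of embryo 1 and 2 of 7734 of embryo 3. Thus 55 of the 59 EGFP UMIs in cells that passed quality control lay in LRO cells, and the 37 LRO cells with EGFP all had a UMI of Foxj1. The labels give these embryos as WT, while the study's methods describe a FOXJ1-EGFP mouse line for its sorted cells, and the origin of the EGFP transcripts was not tested. The libraries labelled wt of embryos 1 and 3 thus stand apart from that of embryo 2, and the members' levels in LRO cells are given per embryo.

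**Figure D1:**
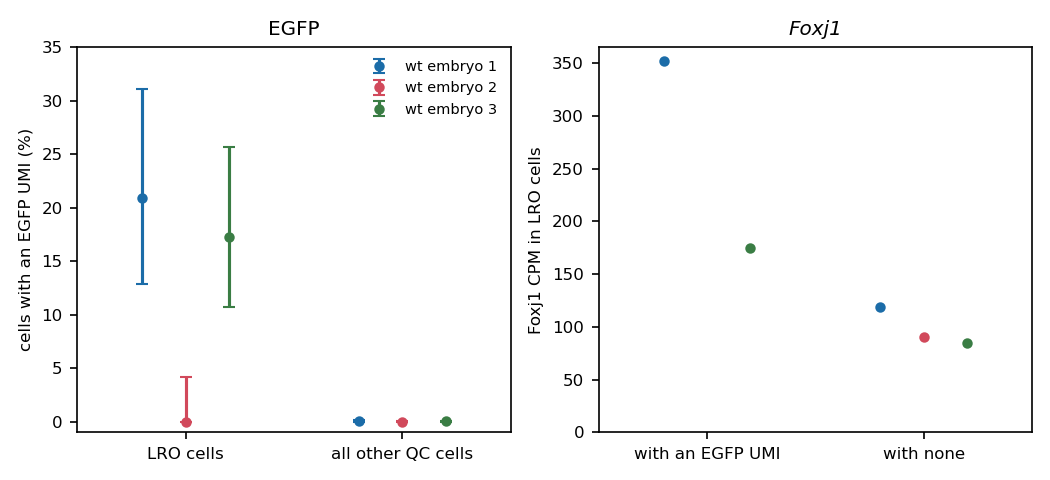
The left panel plots the percent of cells with an EGFP UMI in LRO cells and in all other cells of each embryo, with exact 95% intervals that cover counting error only, and the right panel the Foxj1 level (CPM) in LRO cells with and without an EGFP UMI. EGFP was found in 20.9% and 17.3% of LRO cells of embryos 1 and 3 and in 0 of 86 of embryo 2, and Foxj1 was higher in the cells with EGFP in both embryos that had them.

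Within the LRO cells of embryo 1, Foxj1 was at 352 CPM in the 18 cells with EGFP and at 119 CPM in the 68 without. In embryo 3 it was at 174 CPM in 19 cells and 85.0 CPM in 91 cells, and the LRO cells of embryo 2 were at 90.9 CPM. The Foxj1 level of the cells without EGFP was thus within 85.0 to 119 CPM in all 3 embryos. These groups are unlike, since cells that all had Foxj1 were left out in embryos 1 and 3 and no cell was in embryo 2. Noto followed, at 289 against 93.4 CPM in embryo 1 and 98.0 against 64.0 CPM in embryo 3. Rfx3 was at 66.5 against 33.9 CPM in embryo 1 and 33.3 against 24.1 CPM in embryo 3. Cells with EGFP were the shallower ones, with a median of 22117 against 35013.5 UMIs in embryo 1 and 18762 against 28983 UMIs in embryo 3. With 2 embryos holding such cells no test across embryos was made.

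The first question was how far Foxj1 and Noto, regulators of the motile cilium of the node, were set apart in LRO cells. Foxj1 and Noto had the largest differences of the members. Foxj1 had 477, 184 and 336 UMIs in the LRO cells of embryos 1, 2 and 3, which is 158, 90.9 and 98.4 CPM, and 0.747, 0.609 and 0.598 CPM in all other cells. Noto had 382, 263 and 236 UMIs, which is 127, 130 and 69.1 CPM, against 0.244, 0.238 and 0.216 CPM. The groups did not overlap for either gene. This also held for Rfx2, Rfx3 and Gmnc, the last on 4 UMIs and without passing the test below. It held the other way for Mcidas, with 0 UMIs in LRO cells. How often it held over all genes was not counted, so non-overlap here and below describes the values and is no result about the members. Embryo 1 was the highest for Foxj1, while embryo 3 was the lowest for Noto.

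In edgeR's quasi-likelihood test of the summed UMIs, LRO cells against all other cells, 2697 of 15832 genes passed an adjusted p of 0.05 (17.0%), with 1746 higher (11% of those tested) and 951 lower (6.01%) in LRO cells. Among the 9 members tested, Foxj1, Noto, Rfx2 and Rfx3 passed, all 4 higher in LRO cells. Mcidas was not tested, since it had 0 UMIs in LRO cells and 6 elsewhere. The log2 fold change was 7.40 (standard error, SE, 0.232, adjusted p = 2.36e-08) for Foxj1 and 8.76 (SE 0.261, adjusted p = 2.17e-08) for Noto, each higher in 3 of 3 embryos. The mean level was 115.8 ± 36.8 CPM against 0.652 ± 0.0826 for Foxj1 (SD, n = 3 embryos) and 108.5 ± 34.2 against 0.233 ± 0.0147 CPM for Noto. Without the 195 LRO cells of other lists the log2 fold changes were 9.05 and 10.22. The count over all genes moved to 4971 with the embryo as a block, with 47.8% of the calls higher in place of 64.7%, and was 1154 without embryo 2 and 1338 without embryo 3, where 89.1% and 84.7% were higher. The 4 members called kept their calls in each of these fits. Since LRO cells were picked by ciliary genes, the direction for these regulators of the cilium is set in part by the rule.

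**Figure D2:**
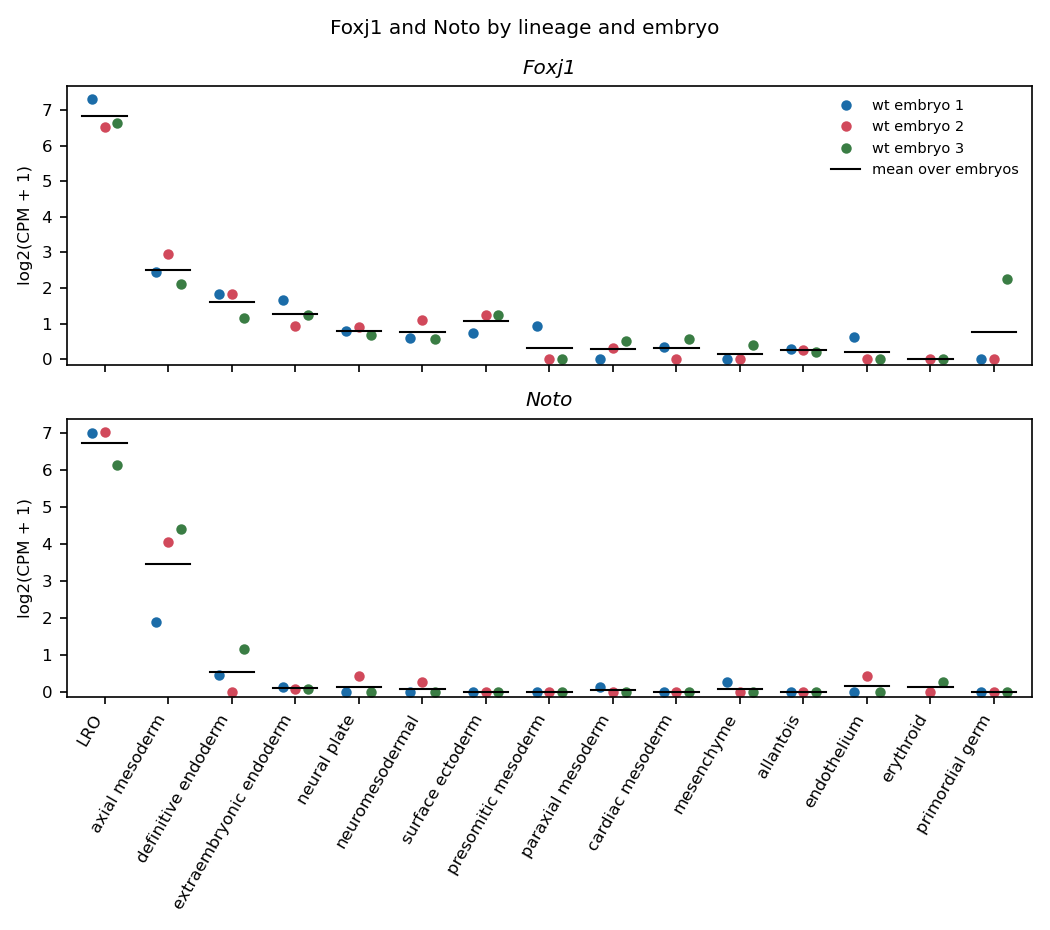
Foxj1 and Noto levels, as log2(CPM + 1), are plotted for the summed cells of each lineage, 1 point per embryo with at least 10 cells of the lineage, and the bar is the mean of the points. Both genes were above a value of 6 in the LRO cells of all 3 embryos, with cells of the axial mesoderm list next and nearly all other lineages below 2.

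Across the 15 lineages, Foxj1 was highest in LRO cells and next in cells of the axial mesoderm list (4.48, 6.71 and 3.34 CPM in the 3 embryos, mean 4.84 ± 1.71). Definitive endoderm followed at 2.14 ± 0.777 CPM and extraembryonic endoderm at 1.48 ± 0.627 CPM, and these neighbours overlapped in range. Neural plate cells were at 0.734 CPM. Noto was second highest in cells of the axial mesoderm list, at 2.69, 15.7 and 20.1 CPM, and definitive endoderm was at 0.537 ± 0.637 CPM. No other lineage had a mean above 0.116 CPM of Noto, and cardiac mesoderm, allantois, presomitic mesoderm, surface ectoderm and germ cells had no UMI of it. Foxj1 thus had low levels in more lineages than Noto did.

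A UMI of Foxj1 was found in 70.9%, 64.0% and 75.5% of LRO cells (70.1% ± 5.79) and a UMI of Noto in 72.1%, 76.7% and 70.9% (73.2% ± 3.08). With each cell thinned to 5000 UMIs these shares were 40.0% ± 4.28 and 45.0% ± 4.83. Erythroid cells, which should lack both genes and so show the background from free RNA, had Foxj1 in 0 of 1052 cells, which allows a share of up to 0.285% by the floor of 3 counts, and Noto in 1. These cells were 2, 760 and 290 in embryos 1, 2 and 3, so the background of embryo 1, the deepest library, was hardly measured. The next highest share of Foxj1 was 8.29% ± 3.79, in cells of the axial mesoderm list, where Noto was in 14.0% ± 8.59 (thinned, 3 and 9 of 121 cells). The median depth over pooled cells was 26224 UMIs in LRO cells, 16431 in cells of the axial mesoderm list and 15064 in erythroid cells.

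LRO cells held 199 of the 488 cells with Foxj1 and 75.4% of its UMIs, and 206 of the 294 cells with Noto and 88.5% of its UMIs. Of the 289 cells with Foxj1 outside the LRO rule, 115 met more than 1 lineage list, 57 were extraembryonic endoderm and 36 neural plate. By ciliary markers, Foxj1 was in 236 of 19880 cells with 0 markers, 37 of 1327 with 1 and 16 of 106 with 2, and 12 of the 236 had more than 1 UMI of it.

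Cells of the axial mesoderm list were the next highest in both genes. They had to hold at most 1 of the ciliary markers, so their gap to LRO cells is set in part by the rule. Against them 1284 of 9404 genes passed (13.7%, of which 7.69% higher and 5.97% lower), or 651 without embryo 1 and 612 without embryo 2. Of the 5 members that could be tested, Foxj1, Noto and Rfx3 passed and were higher in LRO cells. All of these met the filter on low counts only with the help of their LRO sums. The log2 fold change was 4.47 for Foxj1 (SE 0.342, adjusted p = 4.21e-07) and 3.40 for Noto (SE 0.394, adjusted p = 1.92e-05), the latter 2.53 without embryo 1 (adjusted p = 0.00214). Without the 69 cells that also met the endoderm list, these were 4.27 (adjusted p = 7.74e-05) and 2.01 (adjusted p = 0.00636). Noto was at 26.4 CPM in the 54 cells left, with a UMI in 12, and at 3.07 CPM in the 69, with a UMI in 4. Foxj1 was at 5.88 and 4.91 CPM, so it did not show the gap that Noto did.

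Against cells of the definitive endoderm list, 3102 of 10766 genes passed (28.8%, of which 15.7% higher and 13.1% lower). Of the 6 members tested, Foxj1, Noto and Rfx3 were again higher, and the LRO sums are those of the other comparisons. Foxj1 had a log2 fold change of 5.65 (SE 0.278, adjusted p = 3.07e-09) and Noto of 7.75 (SE 0.410, adjusted p = 6.37e-09), the latter against 5 UMIs of Noto in all 643 cells. It was 7.17 without embryo 2 and 8.86 without embryo 3. Both genes were low in every endoderm sum and met the filter on low counts through their LRO sums alone. As LRO cells were picked by ciliary genes, the direction is set in part by the rule.

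**Figure D3:**
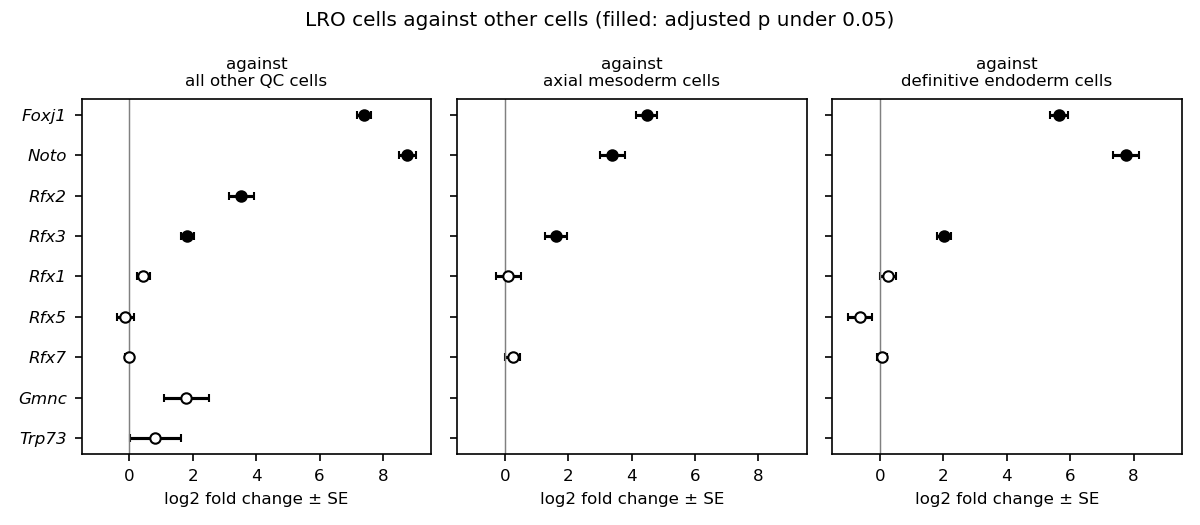
Log2 fold changes of the members between LRO cells and all other cells, cells of the axial mesoderm list and cells of the definitive endoderm list, with the SE from edgeR as bars, filled where the adjusted p was under 0.05. Foxj1 and Noto lie furthest to the right in each panel, Rfx3 is filled in all 3 and Rfx1, Rfx5 and Rfx7 in none, and a gene without a point was not tested.

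Among the RFX members, Rfx2 and Rfx3 were higher in LRO cells than in all other cells, and Rfx1, Rfx5 and Rfx7 did not pass the test. Rfx3 had 119, 84 and 87 UMIs in LRO cells, which is 39.4, 41.5 and 25.5 CPM, against 11.96, 8.29 and 7.95 CPM in all other cells. The lowest LRO value was above the highest of the other cells. The log2 fold change was 1.82 (SE 0.204, adjusted p = 0.000166), and it was 2.97 without the 195 LRO cells of other lists. Unlike Foxj1, Rfx3 was present in every lineage but at a lower level. After the LRO came paraxial mesoderm at 12.6 ± 0.576 CPM and neural plate at 12.5 ± 1.75 CPM, which did not differ beyond their spread, and extraembryonic endoderm was lowest at 2.75 ± 1.36 CPM. A UMI of Rfx3 was found in 56.6% ± 6.40 of LRO cells, 22.9% of paraxial mesoderm and 4.56% of erythroid cells (thinned, 20.1%, 7.02% and 1.07%).

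Against definitive endoderm, at 8.51 ± 1.01 CPM, the log2 fold change of Rfx3 was 2.02 (SE 0.213, adjusted p = 4.80e-06). Against cells of the axial mesoderm list it was 1.62 (SE 0.360, adjusted p = 0.00547), where the 3 embryos held 15.2, 11.2 and 0 CPM. This call was lost without embryo 2 (1.51, adjusted p = 0.128) and without the 69 cells that also met the endoderm list (0.86, adjusted p = 0.364). Those 69 cells were at 8.60 CPM and the other 54 at 19.1 CPM.

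Rfx2 had few UMIs, 29, 10 and 11 in the LRO cells of embryos 1, 2 and 3 (9.61, 4.94 and 3.22 CPM), and 0.572, 0.441 and 0.438 CPM in all other cells. The groups did not overlap, and embryo 1 held 29 of the 50 UMIs. In that embryo Rfx2 was at 27.4 CPM in the LRO cells with EGFP and 5.99 CPM in those without, while in embryo 3 the 19 cells with EGFP held 2 UMIs and the 91 without held 9. The log2 fold change was 3.53 (SE 0.405, adjusted p = 0.000198), and the call was kept without embryo 1 (adjusted p = 0.000825). Rfx2 was found in 27.9%, 8.14% and 9.09% of LRO cells (thinned mean, 4.14%) and in 2.09% of erythroid cells (thinned, 0.913%). Erythroid cells were second among the lineages, at 1.22 and 1.39 CPM in the 2 embryos with at least 10 such cells, and both lay below the lowest LRO value. Cells of the axial mesoderm list held 0 UMIs of Rfx2, so LRO cells were at least 4.55-fold higher, counting 3 UMIs over the whole group as the floor. This bound was 1.54-fold without embryo 1, which held most of the UMIs, and 1.34-fold without the 69 axial cells of the endoderm list. With those 69 cells left out it was 1.29-fold without embryo 3. No bound was left there without embryo 1 or without embryo 2, where the LRO level lay under the floor. Definitive endoderm held 6 UMIs. Rfx2 fell under the filter on low counts there, since neither its endoderm sums nor all of its LRO sums were high enough. Rfx2 was tested in 6 of 14 alternative fits and passed in each, with log2 fold changes from 2.91 to 4.66. Without that filter it was 3.34 (adjusted p = 3.86e-08). In the rest of the 6 fits Rfx2 entered through its LRO sums, so these calls add no independent support.

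**Figure D4:**
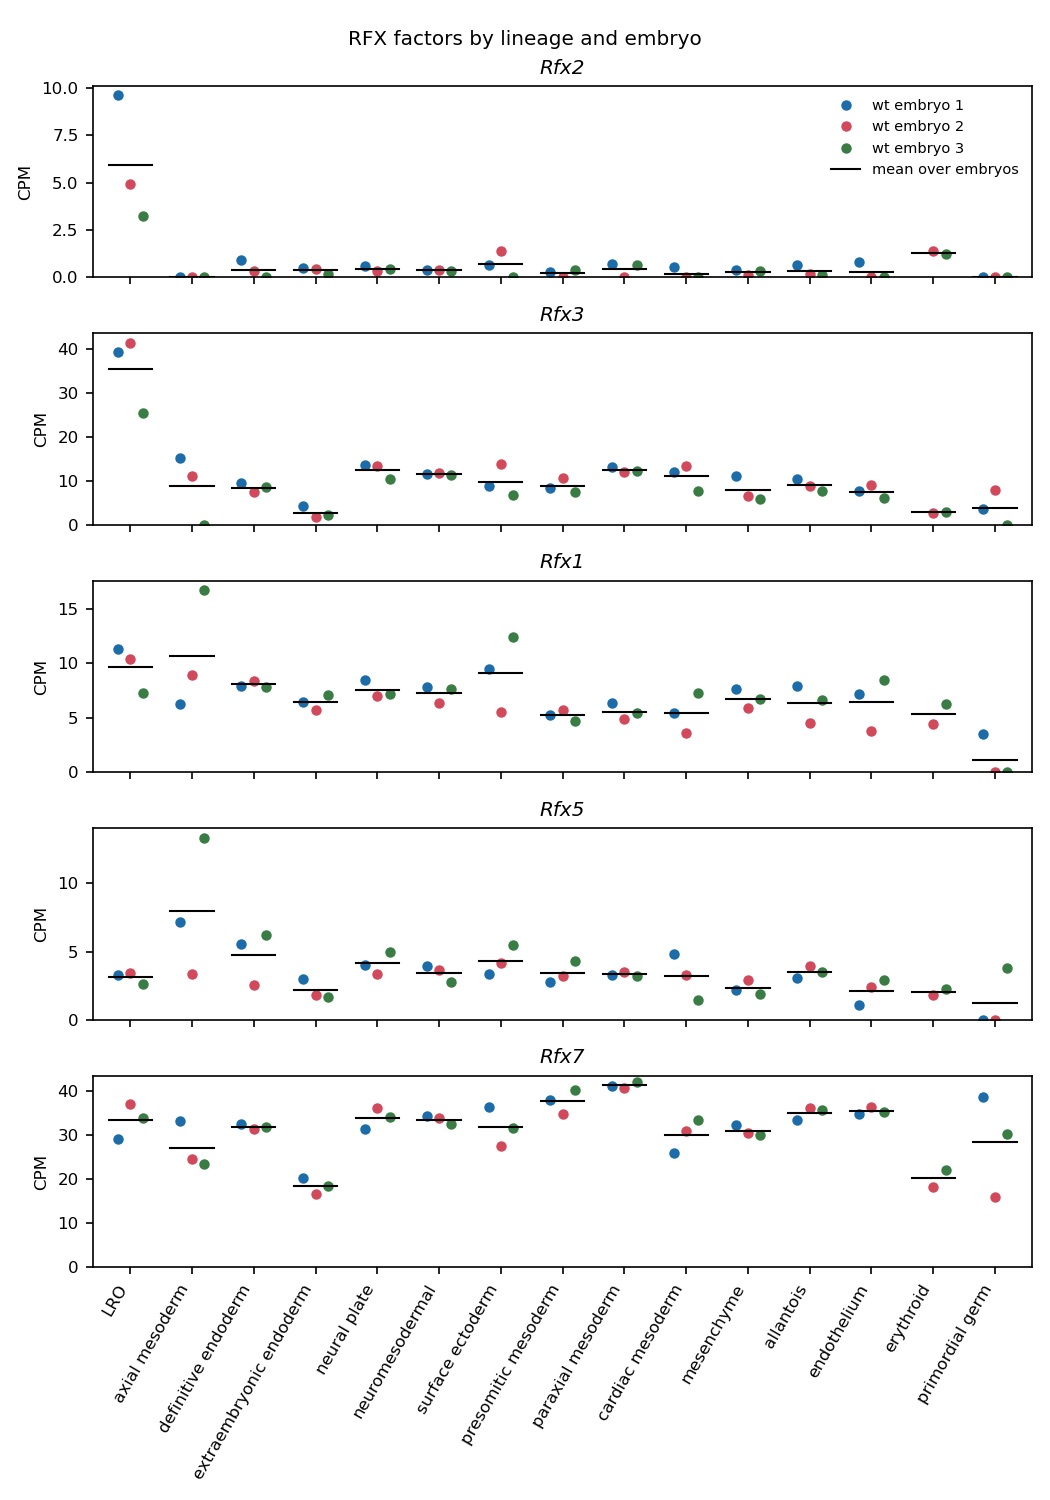
Levels of Rfx2, Rfx3, Rfx1, Rfx5 and Rfx7 in CPM for the summed cells of each lineage, 1 point per embryo, with the mean as a bar and a separate scale for each gene. Rfx2 and Rfx3 are highest in LRO cells, Rfx1 and Rfx5 have their highest mean in cells of the axial mesoderm list, and Rfx7 is highest in paraxial mesoderm.

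Rfx1 was at 11.3, 10.4 and 7.32 CPM in LRO cells (9.65 ± 2.07) and 6.71 ± 0.781 CPM in all other cells, with a log2 fold change of 0.43 (SE 0.201, adjusted p = 0.172). It was higher in 3 of 3 embryos, but its lineage order put cells of the axial mesoderm list first (10.6 ± 5.42 CPM) and LRO cells next, without a gap between them. Rfx7 was at 29.2, 37.0 and 34.0 CPM in LRO cells against a mean of 32.2 ± 2.13 CPM elsewhere, a log2 fold change of -0.03 (SE 0.118, adjusted p = 0.911). Its LRO mean, 33.4 ± 3.97 CPM, lay above the mean elsewhere, while the fold change is taken after TMM scaling of the library totals, and neither sign was called. Its highest lineage was paraxial mesoderm at 41.3 ± 0.792 CPM, and LRO cells were at place 7 of 15. Rfx5 was at 3.31, 3.46 and 2.63 CPM in LRO cells and 3.21 ± 0.409 CPM elsewhere, a log2 fold change of -0.13 (SE 0.269, adjusted p = 0.801), and LRO cells were at place 10. In cells of the axial mesoderm list Rfx5 ranged from 3.35 to 13.4 CPM on 15 UMIs and was not tested.

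The next comparison set Foxj1 and Noto against the regulators of multiciliation. In the LRO cells of embryos 1, 2 and 3, Foxj1 and Noto together had 859, 447 and 572 UMIs and the 5 RFX genes 280, 197 and 248. Gmnc, Mcidas and Trp73 together had 6, 1 and 4. The UMIs were counted at 3' ends and so were not divided by length, though genes can differ in how well their ends are captured. In every embryo the UMIs of Foxj1 and Noto outnumbered those of the multiciliation regulators, 1878 against 11 in all, which compares different genes. Of the 1878, 997 were of Foxj1, which turns on motile cilia and so does not by itself mark a single cilium.

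Mcidas had no UMI in the 282 LRO cells, which allows a share of up to 1.06% of cells with a UMI by the floor of 3 counts (exact upper limit 1.30%) and does not limit the share of cells that express it. It had 6 UMIs in 6 of all 21595 cells. Gmnc had 2, 1 and 1 UMIs in LRO cells, in 3 cells, and 0 of them remained after thinning. Its level was 0.663, 0.494 and 0.293 CPM against 0.129 ± 0.0160 CPM in all other cells, higher in 3 of 3 embryos without passing the test (log2 fold change 1.80, SE 0.718, adjusted p = 0.137). The lineage with the highest Gmnc was the neuromesodermal one at 0.553 ± 0.124 CPM, 12 UMIs in 932 cells, with neural plate at 0.365 ± 0.155 CPM. Definitive endoderm held 1 Gmnc UMI, a ratio of 5.17 with a counting interval of 0.511 to 254.

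Trp73 had 4, 0 and 3 UMIs in LRO cells (1.33, 0 and 0.878 CPM), and its log2 fold change against all other cells was 0.82 (SE 0.813, adjusted p = 0.545). It was highest in neural plate, where 66 of 2194 cells had a UMI, at 1.70, 0.862 and 1.12 CPM, and in neuromesodermal cells at 0.987 ± 0.0197 CPM. LRO cells came next, and their range included 0. Of the 66 cells with Gmnc and the 231 with Trp73 in all embryos, 1 cell had both, and 3 of the cells with Gmnc had Foxj1. At this depth, a difference of LRO cells from other cells was not detectable for Gmnc, Mcidas or Trp73.

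Within the LRO cells, Foxj1 had a median of 4, 1 and 2 UMIs per cell and at most 31, 15 and 17, and Noto a median of 3, 2 and 2 and at most 17, 15 and 8. Both genes had a UMI in 172 of the 282 cells, Foxj1 alone in 27, Noto alone in 34 and neither in 49. The median depth of cells with both and of cells with neither was 29122.5 and 40042 UMIs in embryo 1, 17723 and 17700.5 in embryo 2, and 26095 and 20188 in embryo 3, so the order was not the same in every embryo. Rfx3 had a UMI in 125 of the 199 cells with Foxj1 and in 33 of the 83 without. Rfx2 had one in 38 of the 199 and 3 of the 83. These are descriptions of co-detection in cells that share a library, and depth differs between the classes.

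The members were also followed over the number of ciliary markers in a cell, from 0 to 4, which held 19880, 1327, 106, 60 and 222 cells. Foxj1 was at 0.556 CPM with 0 markers, 1.12 with 1, 7.28 with 2 (5.73 to 8.72), 28.9 ± 23.2 with 3 and 140 ± 42.4 with 4. Noto took the same order, at 0.160, 0.474, 6.91, 40.9 and 130 ± 46.4 CPM. Thus the 106 cells just outside the rule had about the Foxj1 and Noto levels of the axial mesoderm list, and the 60 just inside were well below the cells with all 4 markers. In embryo 1, Foxj1 fell from 8.72 CPM with 2 markers to 4.01 CPM with 3, the latter on 2 UMIs in 14 cells. The share of cells with Foxj1 was 15.5% at 2 markers, 36.1% at 3 and 78.4% at 4. Rfx3 was near 10 CPM up to 2 markers (9.32, 10.5 and 10.8) and then at 26.1 and 39.7 CPM. Rfx2 was between 0.382 and 0.504 CPM at 0 to 3 markers and at 7.56 ± 3.94 CPM at 4. Rfx7 was between 31.7 and 40.6 CPM at every step. Since the steps are counts of ciliary genes, a rise of Foxj1 over them is set in part by the grouping.

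**Figure D5:**
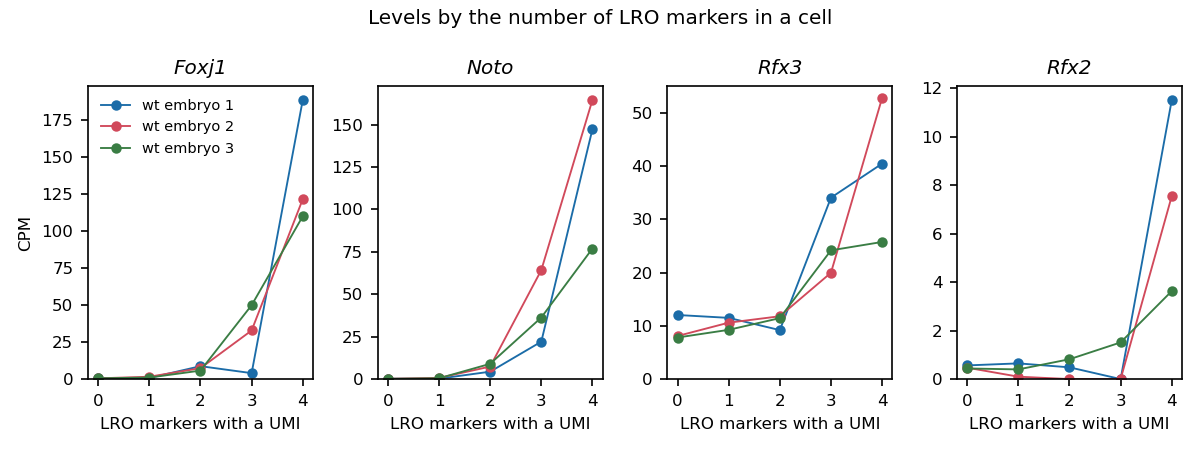
Levels in CPM of Foxj1, Noto, Rfx3 and Rfx2 in cells grouped by how many of the 4 ciliary markers had a UMI, with 1 line per embryo. Noto climbs from 2 markers on, and so does Foxj1 except in embryo 1, where it falls at 3 markers. Rfx3 leaves its level near 10 CPM at 3 markers, and Rfx2 is above 2 CPM at 4 markers alone.

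LRO cells with a UMI of Nodal or Dand5, the crown markers, numbered 153 and those without 129. Foxj1 was at 109 ± 56.4 CPM (range 70.1 to 173) in the former and 123 ± 8.12 CPM (115 to 131) in the latter. Noto was at 92.1 ± 36.7 and 131 ± 62.7 CPM, Rfx3 at 34.5 and 37.4 CPM and Rfx2 at 5.82 and 6.07 CPM. All ranges overlapped, and the split was described without a test, since whether a cell has a UMI of Nodal or Dand5 also depends on its depth.

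The genes around the members came from fixed lists. All 35 motile cilium genes, such as dynein arms, radial spokes and tektins, were higher in LRO cells than in all other cells, with a median log2 fold change of 6.80 against -0.04 over all genes tested. Their values ran from 1.06 to 10.17, the latter for the tektin Tekt4, with Cfap65 at 9.66 and the outer arm dynein Dnah5 at 8.69. The 10 general cilium genes were all higher too but by less, with a median of 1.35 and the highest values for the intraflagellar transport genes Ift57 (2.30), Dync2li1 (2.06) and Ift88 (1.82). Against cells of the axial mesoderm list, 33 of 34 motile cilium genes tested and 5 of 10 general ones were higher. Over all genes tested this share was 7.69%. The list medians were 5.69 and 0.82, over a median of -0.00 for all genes. As 9 of those motile genes had no UMI in the axial cells, their median with each at its bound was 4.57. Without the 69 cells of the endoderm list, 27 of 33 motile and 2 of 10 general genes tested were higher, with medians of 5.43 and 1.09. Over all genes tested in that fit, 330 were called higher, and their share is not given, so these counts are not set against all genes. Against definitive endoderm, 34 of 34 motile genes (median 6.34, or 6.18 with bounds) and 9 of 10 general ones (1.08) were higher, against 15.7% of all genes. The LRO rule asked for ciliary genes and the axial rule limited them. The direction of both cilium lists is thus fixed in part by the rules. Motile genes with no or few UMIs in the axial or endoderm cells also entered those tests through their LRO sums alone. Their counts of calls are therefore no independent support beside the share of all genes.

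Of the multiciliation programme beyond the members, 2 of 10 genes tested were higher in LRO cells than elsewhere and 2 lower, with a median of -0.02. Ccno, a cyclin-like gene needed for centriole amplification, was at 11.6 ± 2.36 CPM against 0.171 CPM, a log2 fold change of 5.97 (adjusted p = 4.47e-06). It had no UMI in cells of the axial mesoderm or definitive endoderm lists, so LRO cells were at least 8.64-fold and at least 40.9-fold higher. These bounds were 4.61-fold and 21.3-fold without embryo 1, and 4.84-fold against the axial cells without embryo 2. Against the 54 axial cells outside the endoderm list the bound for Ccno was 2.55-fold, or 1.29-fold without embryo 2. It was the 1 gene of the 7 tested there that passed. With 0 UMIs in these axial cells, Ccno entered that test through its LRO sums alone, so the call adds nothing to the bound. Deup1, the scaffold of the deuterosome, was at 2.35 CPM against 0.333 CPM (2.80, adjusted p = 0.00490). It was not set apart from cells of the axial mesoderm list, which held 2.46 ± 0.798 CPM on 5 UMIs and where Deup1 was not tested. The lower genes were E2f4 (57.7 against 76.0 CPM, fell by 0.46 on the log2 scale) and Tfdp1 (fell by 0.34), which act with MCIDAS and GMNC and are also cell cycle factors. Cdc20b, the neighbour of Ccno and Mcidas in the multiciliation programme, had no UMI in any cell.

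Of the other RFX family and complex genes, Rfx8 was higher in LRO cells, at 1.08 against 0.197 CPM (log2 fold change 2.36, adjusted p = 0.0185). Rfx4, Rfx6, Rfxank and Rfxap did not pass. Cells of the axial mesoderm list held 2 UMIs of Rfx8 against 9 in LRO cells, a ratio of 1.23 with a counting interval of 0.254 to 11.7. Of the class II genes tied to RFX5, 2 of 5 could be tested, H2-Ab1 and H2-Eb1, with log2 fold changes of 0.33 and -1.43 that did not pass. Against definitive endoderm, Rfx4 (2.72) and the class II gene H2-Ab1 (1.82) were higher, and against cells of the axial mesoderm list Rfxank (-0.15) and Rfxap (0.29) were tested and did not pass, nor did they without the 69 cells of the endoderm list (-0.22 and 0.57).

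Of the upstream and companion regulators, Shh had a log2 fold change of 5.40 against all other cells, Bicc1, an RNA-binding protein needed for left-right patterning, 3.98 and T 3.61. They were followed by Foxa2 (2.68), Tbx6 (1.18), Nkd1 (0.57) and Cdx2 (0.46), which also passed, while Sox17 (-0.45) did not. Against cells of the axial mesoderm list, Tbx6 (2.93), Bicc1 (1.25) and Cdx2 (0.91) were higher, and Sox17 (-3.59), Shh (286 against 139 CPM in LRO cells) and Foxa2 (-0.65) lower. Without the 69 cells of the endoderm list, Cdx2 (2.03), Shh (-2.15) and Foxa2 (-0.86) kept their calls, and Tbx6 (1.63, adjusted p = 0.180) and Bicc1 (1.01, adjusted p = 0.107) lost them. Sox17 turned there, to 2.53 (adjusted p = 0.122), with 17.1 ± 8.10 CPM in LRO cells against 2 UMIs in the axial cells. The 69 cells left out were picked in part by Sox17, so this turn is set in part by the rule. Against definitive endoderm, Tbx6 (5.42), T (4.58), Shh (3.90), Bicc1 (2.63) and Cdx2 (0.78) were higher and Sox17 lower (-3.61), while Foxa2 (-0.07) and Nkd1 (0.30) did not pass. T, Foxa2, Shh, Sox17 and Tbx6 also served to define lineages here, so their direction against those lineages is fixed in part by the rule.

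Over 44 sums of a lineage in an embryo and 12656 genes, the genes whose levels were most like Foxj1 by Pearson's correlation of log2(CPM + 1) were Cfap53 (0.948), Tekt2 (0.940), Enkur (0.928), Cfap44 (0.928) and Dnajb13 (0.927). Those most like Noto were Dnajb13 (0.944), Tekt2 (0.935), Cfap52 (0.927), Cfap45 (0.927) and Akap14 (0.920), and none of these 8 genes is one of the 4 markers of the rule. For Rfx3 the values were lower, with Zc4h2 first (0.854) and the BBSome gene Bbs5 next (0.800). Rfx2 was too sparse for this measure, under a mean of 5 UMIs per sum. The sums of an embryo share its library and depth, and most lineages were near 0 for Foxj1 and Noto. The LRO sums, whose cells were picked by ciliary genes, are among these sums and hold most UMIs of both genes. Likeness of Foxj1 and Noto to cilium genes is thus fixed in part by the rule.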

How the data were processed

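The authors deposited raw counts of UMIs per gene and cell barcode, made with Cell Ranger 3.1.0 (per the submitters' processing notes) on mm10 with EGFP added. The files were checked to hold whole numbers. Cells were kept with at least 1500 genes, at most 8500 (embryos 1 and 3) or 7500 (embryo 2), and 0.5 to 10% mitochondrial UMIs. This limit at the bottom removed 334, 160 and 79 barcodes and stands in for clusters the study removed. No doublet caller was run. The 282 LRO cells came from the 4-marker rule and other lineages from lists of markers, at least 3 with a UMI. Cells of the axial mesoderm list also had to hold a UMI of at most 1 of the 4 ciliary markers. A cell meeting several other lists was left without a lineage (5286 cells, 24.5%), except where 1 list was ranked before another, as axial mesoderm was before definitive endoderm.

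UMIs were summed per embryo and lineage and tested with edgeR (version 4.0.16, R version 4.3.3; glmQLFit and glmQLFTest, TMM, filterByExpr, Benjamini-Hochberg adjusted p under 0.05), 3 sums against 3. Nothing in the labels says more of the embryos' litters. The LRO markers were left out of counts of calls. SE is the log2 fold change divided by the root of F. DESeq2 (version 1.42.0) and other settings were alternatives. The main fit did not use pairing, though the same embryo gave both of its sums. Their deviations correlated across genes at 0.262 to 0.371 (all other cells), 0.0606 to 0.110 (axial mesoderm list) and 0.186 to 0.262 (definitive endoderm). On simulated counts the test against all other cells recovered 74% of 2-fold and 96% of 4-fold raised genes (15707 genes), that against axial cells 80% and 100% (9411 genes) and that against endoderm 94% and 100% (10704 genes). Of genes lowered by the same folds it recovered 60% and 76%, 66.0% and 98.0%, and 72% and 98.0%. Of the calls, 4.97%, 2.31% and 4.74% were false. The simulated sums were not paired, had the same spread between embryos for every gene, and only genes with many UMIs were changed. The shares recovered need not hold for sparse or more variable genes such as Rfx2.

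All 10 members are named. Of each other list the 3 largest changes each way are named, or any gene of a list of up to 11, and for likeness the 5 highest correlations. Some genes of the list of upstream regulators are not reported here. The members, lists and markers were chosen with earlier results of these data known. Promoters came from RefSeq (GRCm38.p6) and gene positions from the GENCODE annotation of GRCm38. Foxj1 has no entry among the promoters used here. Intervals for shares are exact (Clopper-Pearson, 95%), and floors are 3 counts. Both cover counting error only.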

Additional observations from a re-analysis of the deposited data

Results flagged for a closer look

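EGFP was counted in the libraries but enters no comparison of the study's single-cell samples, and it was found in LRO cells of embryos labelled wt. The LRO cells held 26 EGFP UMIs in embryo 1 and 29 in embryo 3, and 0 in embryo 2, at 8.62, 8.49 and 0 CPM. In the cells outside the LRO of the same libraries, EGFP was in 0.0350% of embryo 1 and 0.0259% of embryo 3. All 18 and 19 LRO cells with EGFP had Foxj1. Whether the labels of these 2 libraries are complete was not tested. Leaving out embryo 2, the library without EGFP, gave log2 fold changes against all other cells of 7.50 for Foxj1, 8.65 for Noto, 3.58 for Rfx2 and 1.64 for Rfx3. With embryos 1 and 3 both left out there is no test, and embryo 2 alone had Foxj1 at 90.9 against 0.609 CPM, Noto at 130 against 0.238, Rfx2 at 4.94 against 0.441 and Rfx3 at 41.5 against 8.29.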

How the results depend on the processing

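Over 14 alternatives against all other cells, Foxj1 (7.01 to 9.05), Noto (8.22 to 10.22), Rfx2 (3.02 to 4.74) and Rfx3 (1.48 to 2.97) kept direction and call. So did Foxj1 and Noto over 15 against the axial mesoderm list (3.97 to 6.25 and 2.01 to 4.98), and Foxj1, Noto and Rfx3 over 14 against definitive endoderm (5.39 to 7.43, 7.17 to 9.28 and 1.65 to 3.30). Counts of genes called moved more. Against all other cells it was 4971 with the embryo as a replicate block, 4226 without LRO cells of other lists (50.8% higher) and 1154 to 2240 with an embryo left out. Against axial cells it was 453 after thinning to 5000 UMIs, 546 without axial cells of the endoderm list (added after seeing the data) and 612 to 1410 with an embryo left out. The share called higher there, 56.3%, was 70.1% without LRO cells of other lists and 67.5% after thinning. Against endoderm it was 1455 after thinning and 2146 to 2623 with an embryo left out. The block changed no member's call. Shares of LRO cells were 40.0% for Foxj1 and 45.0% for Noto after thinning, 78.4% and 78.8% with all 4 markers, 55.1% and 57.3% with at least 2, and 67.4 to 73.2% and 71.5 to 74.4% with an embryo left out.

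Reversals concerned uncalled members. Against all other cells, Rfx5 (-0.13) was -0.28 to 0.025 with an embryo left out (above 0 without embryo 3), 0.10 after thinning and 0.13 without cells over 50000 UMIs. Rfx7 (-0.03) was -0.13 to 0.12 with an embryo left out (above 0 without embryo 1), 0.032 with at least 2 markers, 0.28 after thinning and 0.012 without cells over 50000 UMIs, where Trp73 was -0.25. Against axial cells, Rfx1 (0.12) was -0.35 to 0.53 with an embryo left out (below 0 without embryo 1), -0.062 with at least 2 markers and -0.13 without axial cells of the endoderm list. Against endoderm, Rfx7 (0.06) was -0.014 to 0.18 with an embryo left out (below 0 without embryo 2), -0.018 with all 4 markers and -0.29 without LRO cells of other lists. The causes were not tested. Alternatives added after seeing the data were the axial cells above, cells over 50000 UMIs, LRO cells with T and Foxa2, and a leading list for mixed cells. Without the filter on low counts Trp73 passed against endoderm (4.44, adjusted p = 0.0335, on 7 UMIs against 0) and Rfx2 against axial cells (adjusted p = 0.000175). Depth limits Gmnc, Mcidas and Trp73, with 4, 0 and 7 UMIs in LRO cells.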
